A study of Mus musculus with 18 samples.

Results

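Open chromatin at 4 genes of the angiopoietin and Tie receptor system, Tek (which encodes Tie2), Tie1, Angpt2 and Ptprb, was described in lung endothelial cells (ECs) of young and aged mice. ATAC-seq peaks of 18 mice on chromosomes 1 to 19, X and Y were merged where they overlapped, and those found in at least 2 lists were kept. A region was assigned to one of these genes when the gene had the nearest RefSeq transcription start site (TSS) to its midpoint or when the midpoint lay within the gene. This gave 42 of 47338 regions, 15 at Tek, 3 at Tie1, 8 at Angpt2 and 16 at Ptprb. The rule used peak positions and gene models.

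Tie2 is a receptor tyrosine kinase of ECs. Angiopoietin-1, made largely by cells around the vessel, activates it and supports quiet, tight vessels, whereas angiopoietin-2, the product of Angpt2 and released by ECs themselves, often weakens that signal and accompanies vessel remodelling. Tie1 is a related receptor that modulates Tie2, and Ptprb encodes VE-PTP, an endothelial phosphatase that acts on Tie2.

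The mice were FVB animals carrying a Col1α1-GFP reporter for fibroblasts. At 2 months of age there were 5 Young Sham and 4 Young Bleo mice, and at 18 months 4 Aged Sham and 5 Aged Bleo mice. Sham mice received PBS and Bleo mice about 1 U/kg bleomycin into the trachea, and lungs were taken on day 30. ECs were sorted by CD31 after cells with CD45, CD326 or GFP had been removed, so each list mixes the EC types of 1 lung, and fewer cells of a type and less open DNA per cell cannot be told apart.

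ATAC-seq marks open DNA by the cuts of the transposase Tn5. The deposited lists held 21050 to 40883 nuclear peaks, with a background coverage of 1.02 to 1.78 fragments. All Young Sham lists came from sequencing lane 8 and all Aged Bleo lists from lane 6, while Aged Sham came from lane 7 but for 1 list from lane 6, and Young Bleo from lane 7 but for 1 list from lane 8. Young Sham shared no lane with either aged group, nor Aged Bleo with Young Bleo, so lane and group cannot be told apart within these 3 comparisons. Peaks lay at the promoters of the endothelial markers Cdh5, Cldn5, Kdr and Egfl7 in 18 lists, of Pecam1 in 17 and of Emcn in 7. The promoters of 4 leukocyte and 4 epithelial markers had no region, whereas among 4 fibroblast and mural markers Pdgfra had a peak in 18 lists and Col1a1, Pdgfrb and Rgs5 had none.

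Regions are named by gene and by the distance of their midpoint from the TSS, negative upstream. The windows below, 200 bp around the strongest summit on the plus strand (RefSeq, mm10), belong to regions on which the results turn. Capitals mark matches on either strand to the letters searched for 5 kinds of factor. These were CAGGAAG for ERG and other ETS factors and TGANTCA for AP-1. For forkhead factors they were TGTTTAC and for SOX factors AACAAT. The letters AGATAA were searched for factors of the GATA family. At Tek they are -6.51 kb (chr4:94732752-94732951, intergenic) and the intronic +7.27 kb (chr4:94746549-94746748), +30.44 kb (chr4:94769618-94769817) and +117.10 kb (chr4:94856172-94856371).
Tek -6.51 kb: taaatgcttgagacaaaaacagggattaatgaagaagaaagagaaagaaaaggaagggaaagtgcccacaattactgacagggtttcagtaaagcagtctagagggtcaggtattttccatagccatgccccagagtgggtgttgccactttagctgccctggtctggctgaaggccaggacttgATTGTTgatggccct
Tek +7.27 kb: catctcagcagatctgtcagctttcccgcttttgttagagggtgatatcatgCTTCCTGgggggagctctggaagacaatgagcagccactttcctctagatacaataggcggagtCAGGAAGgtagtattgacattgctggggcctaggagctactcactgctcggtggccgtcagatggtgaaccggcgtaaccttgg
Tek +30.44 kb: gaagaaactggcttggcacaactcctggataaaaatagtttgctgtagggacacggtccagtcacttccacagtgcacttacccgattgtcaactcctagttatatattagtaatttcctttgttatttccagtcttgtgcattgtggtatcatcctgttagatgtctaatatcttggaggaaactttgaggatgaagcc
Tek +117.10 kb: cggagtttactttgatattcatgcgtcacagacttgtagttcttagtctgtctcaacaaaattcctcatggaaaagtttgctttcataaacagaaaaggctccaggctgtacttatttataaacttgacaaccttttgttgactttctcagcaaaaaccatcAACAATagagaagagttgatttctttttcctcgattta

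At Angpt2, a gene on the minus strand, the windows are -48.96 kb (chr8:18790441-18790640), in an intron of Mcph1, and +47.02 kb (chr8:18694470-18694669), whose midpoint lies in an intron and whose window holds 58 coding bases. At Ptprb the window is -55.51 kb (chr10:116245710-116245909), in an intron of Ptprr.
Angpt2 -48.96 kb: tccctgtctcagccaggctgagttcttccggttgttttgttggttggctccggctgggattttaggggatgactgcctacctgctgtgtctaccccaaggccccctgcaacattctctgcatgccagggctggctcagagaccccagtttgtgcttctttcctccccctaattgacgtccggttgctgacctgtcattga
Angpt2 +47.02 kb: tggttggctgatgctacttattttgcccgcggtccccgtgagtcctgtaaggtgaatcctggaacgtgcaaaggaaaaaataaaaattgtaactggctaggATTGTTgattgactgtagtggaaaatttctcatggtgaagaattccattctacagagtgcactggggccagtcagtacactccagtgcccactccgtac
Ptprb -55.51 kb: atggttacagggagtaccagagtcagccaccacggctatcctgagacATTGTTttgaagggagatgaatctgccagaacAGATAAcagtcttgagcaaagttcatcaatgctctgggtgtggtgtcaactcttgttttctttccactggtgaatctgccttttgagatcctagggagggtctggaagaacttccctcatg

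Promoters were matched in RefSeq for 2 of the 4 genes. The 250 bases upstream of the TSS are given on the strand of the gene for Tek (chr4:94739039-94739288, plus) and Tie1 (chr4:118489850-118490099, minus), because the start regions of these receptor genes stood at different strengths.
Tek promoter: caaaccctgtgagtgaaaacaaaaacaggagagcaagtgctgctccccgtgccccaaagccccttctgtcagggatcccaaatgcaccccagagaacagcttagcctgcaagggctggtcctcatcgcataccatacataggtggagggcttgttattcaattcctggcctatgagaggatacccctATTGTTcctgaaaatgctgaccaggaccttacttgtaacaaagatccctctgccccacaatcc
Tie1 promoter: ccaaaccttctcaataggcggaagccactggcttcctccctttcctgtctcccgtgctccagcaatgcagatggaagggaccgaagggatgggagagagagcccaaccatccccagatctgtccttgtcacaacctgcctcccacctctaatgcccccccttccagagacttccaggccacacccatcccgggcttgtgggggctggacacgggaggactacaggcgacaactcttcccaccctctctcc
The Tek window held the SOX letters, as did 9.42% of 32851 RefSeq promoter windows of this length. The Tie1 window held none of the 5 exact strings of letters. Other forms of a factor's site were not searched, so this does not show that sites are lacking.

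Most of the regions lay away from promoters. By midpoint 26 were in introns, 9 were intergenic, 3 in coding exons, 3 in promoters (from 1000 bp before to 100 bp after a TSS) and 1 in a UTR. Tek (chromosome 4, 94739289 to 94874976, plus strand) had 11 regions in its body, of which the 3 farthest downstream had the Eqtn TSS nearest. Tie1 (chromosome 4, 118471191 to 118489849, minus strand) had 1 region at its promoter and 2 upstream of it.

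All 8 Angpt2 regions (gene at chromosome 8, 18690263 to 18741562) lay within Mcph1, a larger gene around it. Of the Ptprb regions (gene at chromosome 10, 116301374 to 116389538, plus strand), 8 lay in introns of Ptprr and 1 in the gene body had the Kcnmb4os1 TSS nearest. Distance to a TSS does not show on which gene a region acts.

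Motif letters are given as a description. The ETS core occurred in 23.8% of the 42 windows and in 20% of all 47338, and AP-1 in 9.52% and 8.63%. The SOX letters occurred in 31% of the 42 and 12.8% of all, in 7 windows at Ptprb, 4 at Tek and 2 at Angpt2. GATA letters occurred in 16.7% and 9.61%, and forkhead letters in 9.52% and 4.44%. Tek +7.27 kb and Tek +90.87 kb each held 2 matches to CAGGAAG, and both had a peak in all 18 lists.

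Strength was measured as the percentile of a region's fold enrichment among all peaks of the same list, with 0 where no peak was called. By median percentile the strongest region was the Tie1 promoter (Tie1 -0.07 kb). It stood at 95.6, 97.3, 97.5, 94.7 and 94.00 in Young Sham, 98.6, 98.7, 97.1 and 96.5 in Young Bleo, 94.1, 94.96, 97.3 and 98.5 in Aged Sham, and 96.5, 94.6, 95.3, 91.4 and 98.6 in Aged Bleo. The groups overlapped, and the difference between Aged Sham and Young Sham was 0.42 percentile points with a 95% interval of -3.17 to 4.01.

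The intronic Tek +7.27 kb was the strongest region at the Tie2 gene. It stood at 90.8, 92.03, 86.4, 93.2 and 86.8 in Young Sham, 95.02, 94.4, 95.6 and 86.8 in Young Bleo, 84.7, 90.3, 88.1 and 92.3 in Aged Sham, and 95.01, 93.9, 85.9, 78.7 and 80.4 in Aged Bleo. All groups overlapped, and the 95% interval of the Aged Sham minus Young Sham difference was -8.14 to 6.15 points. The other Tek region in all lists, Tek +90.87 kb, had means of 75.7 ± 3.92 (SD, n = 5) in Young Sham, 68.5 ± 4.20 (n = 4) in Young Bleo, 65.6 ± 4.92 (n = 4) in Aged Sham and 64.6 ± 9.99 (n = 5) in Aged Bleo. Aged Sham lay wholly below Young Sham there, but the difference of -10.07 ± 4.28 points (SE) did not pass limma's test (adjusted p = 0.217).

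The start of Tek (Tek +0.11 kb, midpoint in the UTR) was weaker, at 52.2, 53.96, 52.96, 47.8 and 62.7 in Young Sham, 35.5, 14.98, 52.5 and 35.8 in Young Bleo, 34.3, 8.52, 0 and 51.6 in Aged Sham, and 47.7, 42.6, 29.5, 0 and 0 in Aged Bleo. Aged Bleo lay below Young Sham without overlap, but the difference of -29.96 ± 10.9 points (SE) did not pass limma's test (adjusted p = 0.122). The Ptprb promoter (Ptprb +0.02 kb) had means of 80.7 ± 2.30 (SD, n = 5) in Young Sham, 79.9 ± 2.89 (n = 4) in Young Bleo, 72.9 ± 13.2 (n = 4) in Aged Sham and 75.5 ± 8.56 (n = 5) in Aged Bleo, and its groups overlapped.

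The Angpt2 region with the highest median over the 18 lists, the intronic Angpt2 +29.73 kb, stood at 62.2, 58.99, 46.3, 45.8 and 40.9 in Young Sham, 46.8, 61.1, 37.8 and 46.8 in Young Bleo, 29.2, 52.8, 14.6 and 38.3 in Aged Sham, and 49.8, 67.6, 43.6, 12.9 and 15.1 in Aged Bleo, with all groups overlapping. By group mean it was not the highest in Young Sham, where the Angpt2 promoter and Angpt2 +47.02 kb lay above it, nor in Aged Sham, where the promoter and Angpt2 -26.26 kb did. Of the 42 regions, 9 had a peak in all 18 lists, including the promoters of Tie1, Angpt2 and Ptprb. A further 18 had a peak in 10 to 17 lists and 15 in 2 to 9 lists. Regions of the last kind rested on few fragments, with medians of 12.5 to 23 at the summit.

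**Figure D1:**
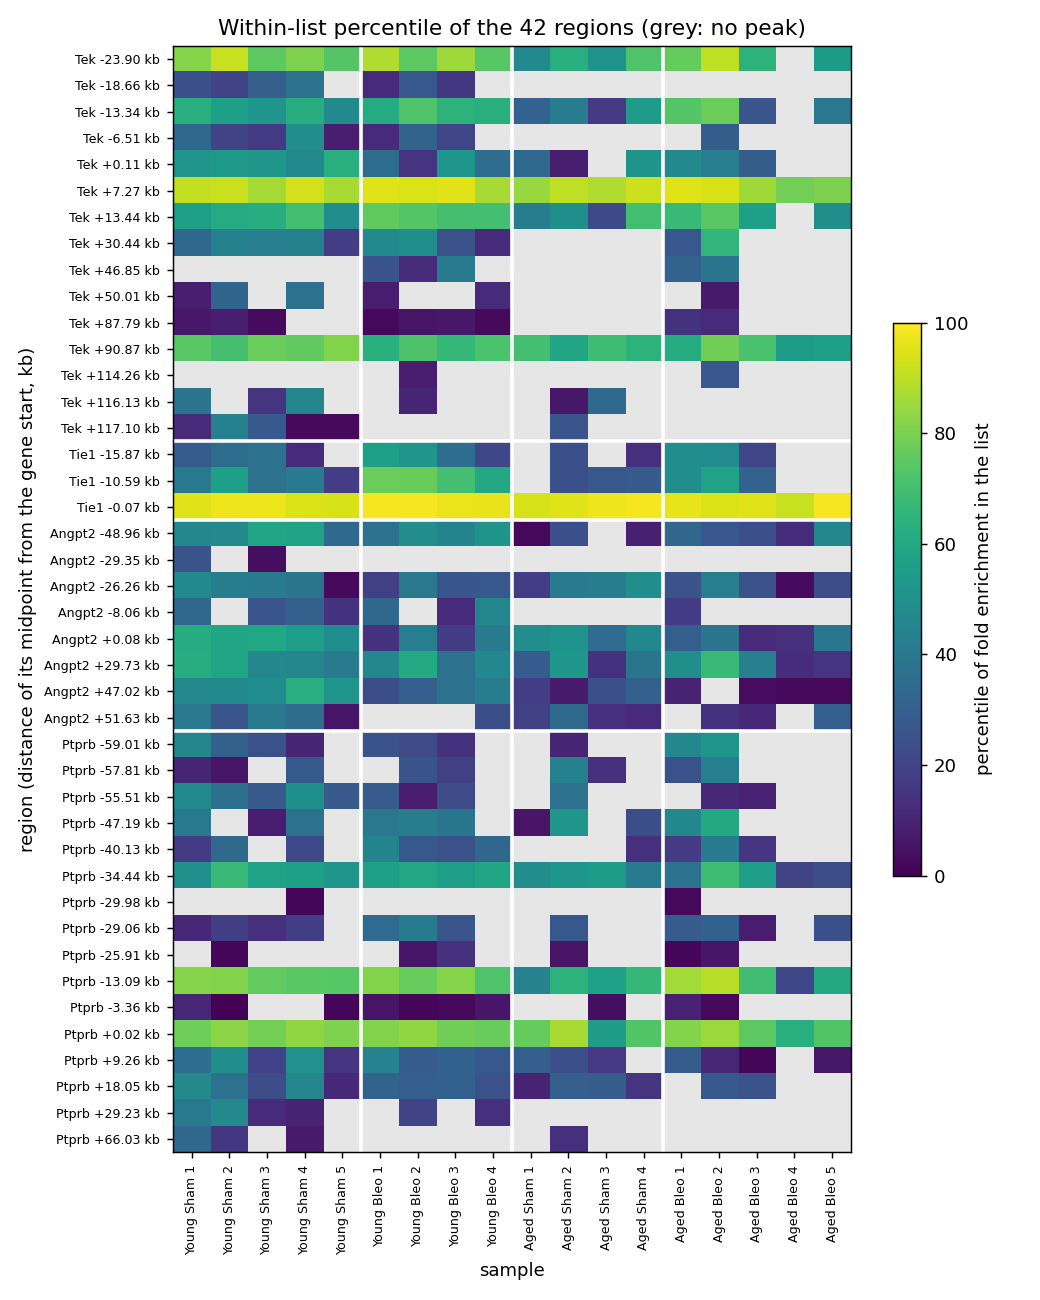
Percentile of fold enrichment within the list for each of the 42 regions (rows, named by gene and distance in kb) in each of the 18 samples (columns), with grey where no peak was called and white lines between groups and genes. The Tie1 promoter and Tek +7.27 kb were high in all samples, while many weaker Tek regions were grey in Aged Sham.

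By group mean, aged lists held peaks at fewer of these regions, though single lists overlapped, with 33 in Aged Bleo 2 and 25 in Young Sham 5. Young Sham samples had a peak at 33.4 ± 5.03 of the 42 (SD, n = 5), Young Bleo at 31.75 ± 3.40 (n = 4), Aged Sham at 22.25 ± 4.57 (n = 4) and Aged Bleo at 22.8 ± 9.07 (n = 5). As shares these were 79.5%, 75.6%, 53.0% and 54.3%, beside 71.9%, 75.1%, 59.2% and 62.9% over all regions. At Tek the mean was 11.6 of 15 regions in Young Sham, 11.25 in Young Bleo, 6.5 in Aged Sham and 6.8 in Aged Bleo. Aged Sham, with 6 to 8 Tek regions, lay below the 9 to 13 of Young Sham and of Young Bleo, whereas Aged Bleo ran from 2 to 12.

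The aged groups had both a lower mean depth and lower mean counts. Mean background coverage was 1.56 fragments in Young Sham, 1.65 in Young Bleo, 1.16 in Aged Sham and 1.21 in Aged Bleo, and its part in the counts was not tested. Single lists went both ways. Young Sham 1 had the lowest coverage of its group (1.26) and a peak at 38 regions, and Young Sham 5, at 1.36, at 25. Aged Bleo 2, 5 and 4, at 1.14, 1.14 and 1.06, had peaks at 33, 17 and 11. Aged Sham 1 and 3, each at 1.02, had peaks at 19 and 20. Young Sham 1 and 5 held 38747 and 30073 nuclear peaks, and Aged Bleo 2, 5 and 4 held 40883, 26886 and 21050. Aged Sham 1 and 3 held 26148 and 25793. When the 21050 peaks with the highest -log10 p were taken from each list, the shares were 39.5 ± 5.22% in Young Sham, 32.7 ± 5.28% in Young Bleo, 32.7 ± 2.28% in Aged Sham and 26.7 ± 3.10% in Aged Bleo, beside 43.6% to 44.1% over all regions. Within lane 7, which held 3 mice of each, the share was 54.0% in Aged Sham and 79.4% in Young Bleo, beside 57.2% and 76.9% over all regions.

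**Figure D2:**
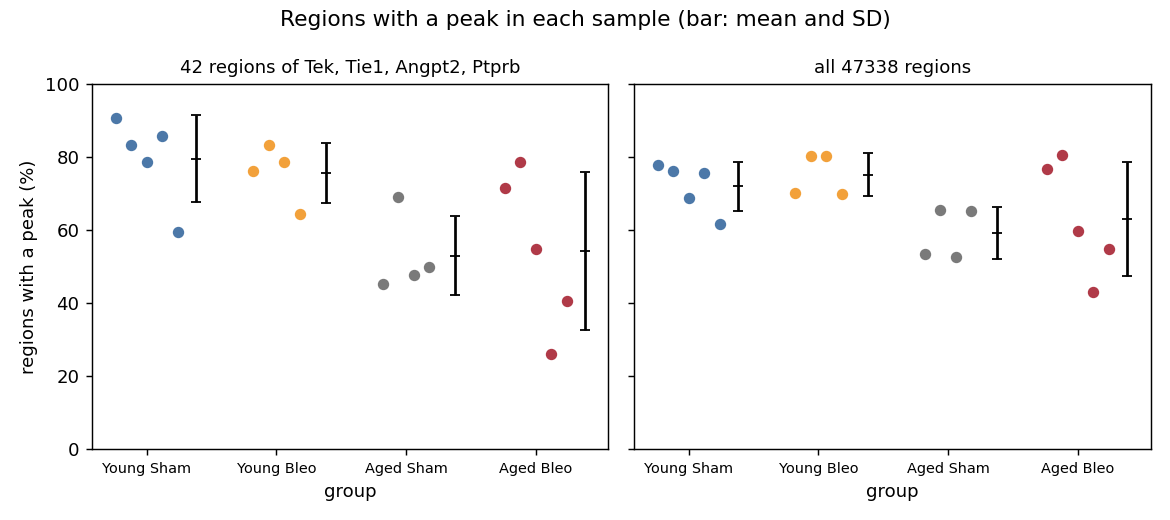
Percentage of regions with a peak in each sample (points) by group, for the 42 regions (left) and for all 47338 regions (right), with bars for mean and SD. Aged Sham averaged 53.0% on the left and 59.2% on the right, and Young Sham 79.5% and 71.9%.

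The first comparison asked how ECs of aged mice differed without injury. For each region the numbers of mice with a peak were compared by Fisher's exact test (two-sided, p up to 0.05, unadjusted), and strength was compared with limma over all 47338 regions (Benjamini-Hochberg adjusted p below 0.05). Against Young Sham, 7 of the 42 regions lost peaks in Aged Sham and none gained, 4 at Tek, 1 at Angpt2 and 2 at Ptprb. This is 16.7% of the 42, beside 4.9% of all regions lower and 0.264% higher. No region of the series passed adjustment by Fisher's exact test, whose smallest p here is 0.00794. Of the 7, 2 were left without Young Sham 1, 3 or 4 or without Aged Sham 1, 3 or 4, 3 without Young Sham 2, and 4 without Young Sham 5 or Aged Sham 2. Where lists were cut to equal length none of the 7 was called. This cut also removes weak peaks from the Young Sham lists, and a call can be lost in that way. The 1 region called was Angpt2 +47.02 kb, with a peak in 5 Young Sham lists and 1 Aged Sham list (Fisher's exact p = 0.0476).

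At Tek the losses lay upstream (-18.66 and -6.51 kb) and in introns (+30.44 and +117.10 kb). Tek -6.51 kb had a peak in all Young Sham lists, at 33.3, 20.5, 16.97, 48.8 and 8.22, in 3 Young Bleo lists, at 11.8, 31.8 and 20.8, in 0 of 4 Aged Sham lists, and in 1 Aged Bleo list, at 29.6. Tek +30.44 kb had a peak at 33.3, 43.8, 42.6, 43.8 and 18.2 in Young Sham, at 47.7, 49.9, 24.98 and 11.9 in Young Bleo, in 0 Aged Sham lists, and at 27.1 and 65.8 in 2 Aged Bleo lists. For both, every Young Sham and no Aged Sham mouse had a peak (Fisher's exact p = 0.00794). With equal list lengths the difference at both was 0 (Fisher's exact p = 1), because the cut also removed their Young Sham peaks, so that setting could not show a difference there. Where peaks had to cover 50% of the region it was -60 percentage points (Fisher's exact p = 0.167). Their peaks rested on 11 to 29 fragments at the summit, so a missing peak does not show closed DNA at this depth.

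Tek -18.66 kb had a peak in 4 Young Sham lists, at 24.4, 20.5, 30.2 and 37.6, in 3 Young Bleo lists, at 11.8, 27.6 and 16.3, and in none of the 9 aged lists (Fisher's exact p = 0.0476 for Aged Sham). Tek +117.10 kb had a peak in all Young Sham lists, at 11.9, 43.8, 27.8, 2.65 and 2.40, and elsewhere in Aged Sham 2 only, at 26.2. It was called lower in both Bleo groups as well as in Aged Sham, comparisons that share those 5 Young Sham lists. A region had to have a peak in at least 2 lists, which this one met only through Young Sham, so these calls follow in part from how regions were chosen. All 3 were lost where peaks needed a -log10 q or a fold enrichment of at least 5, and the peaks of Young Sham 4 and 5 had a fold enrichment of 3.99 and 4.23.

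At the other genes, Angpt2 -8.06 kb had a peak in 4 of 5 Young Sham and 0 of 4 Aged Sham lists, Ptprb -55.51 kb in 5 and 1, and Ptprb +29.23 kb in 4 and 0, each with a Fisher's exact p of 0.0476. Where peaks had to cover 50% of the region, the calls at Angpt2 -8.06 kb, Ptprb -55.51 kb and Tek -18.66 kb were lost. The call at Ptprb +29.23 kb was lost where peaks needed a fold enrichment of at least 5, as was its Aged Bleo call. By strength 2 regions were lower in Aged Sham and none higher, both at Angpt2, beside 2.62% of all regions lower and 0.0803% higher. Without Young Sham 5 the count was 6, and over all regions calls went from 1279 to 2437. With lane as a term, with background coverage as a covariate or with equal list lengths it was 0, with 135, 115 and 157 calls over all regions.

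Angpt2 -48.96 kb stood at 46.7, 46.9, 59.3, 57.5 and 34.5 in Young Sham, 37.99, 49.3, 45.1 and 51.8 in Young Bleo, 2.33, 24.3, 0 and 8.75 in Aged Sham, and 33.1, 27.2, 24.3, 13.2 and 46.7 in Aged Bleo. Aged Sham lay wholly below Young Sham, with a difference of -40.18 ± 6.63 points (SE, limma adjusted p = 0.00553), while the Aged Bleo values reached into the Young Sham range.

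The smallest limma p among the 42 belonged to Angpt2 +47.02 kb, near the 3′ end of the angiopoietin-2 gene. It stood at 47.02, 47.8, 48.5, 63.1 and 52.2 in Young Sham, 24.1, 29.7, 37.2 and 41.8 in Young Bleo, 18.6, 7.09, 24.3 and 30.5 in Aged Sham, and 9.96, 0, 3.43, 2.48 and 2.56 in Aged Bleo. Young Sham lay above every other sample and Aged Bleo below every Young Bleo sample, while Aged Sham overlapped with both Bleo groups. Fold enrichment at the summit was 8.75 to 11.6 in Young Sham, 6.30 to 7.85 in Young Bleo, 5.08 to 6.71 in Aged Sham and 4.42 to 4.90 in the 4 Aged Bleo lists with a peak, on 35 to 57, 18 to 26, 13 to 21 and 10 to 13 fragments.

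At Angpt2 +47.02 kb the difference from Young Sham was -31.59 ± 4.70 points (SE) in Aged Sham (limma adjusted p = 0.00244), -18.54 ± 4.70 in Young Bleo (adjusted p = 0.0424) and -48.05 ± 4.43 in Aged Bleo (adjusted p = 3.36e-05). Aged Bleo was lower than Young Bleo, with a difference of -29.50 ± 4.70 points (limma adjusted p = 0.00781), and with equal list lengths this difference was -1.59 ± 4.67 (limma adjusted p = 1.00). The Young Bleo call was lost without any 1 of the Young Sham samples or of Young Bleo 1, 2 and 3.

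With equal list lengths the Aged Bleo minus Young Sham difference at Angpt2 +47.02 kb was -20.32 ± 4.41 points (limma adjusted p = 0.0272) and the Aged Sham one -19.00 ± 4.67 (limma adjusted p = 0.116). With normal scores in place of percentiles the Aged Sham call was lost (limma adjusted p = 0.257). With lane as a term the 2 differences were -50.36 ± 10.8 (limma adjusted p = 0.132) and -23.54 ± 8.46 (limma adjusted p = 0.427). Within lane 7 the mean percentile was 16.7 in Aged Sham and 30.3 in Young Bleo.

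**Figure D3:**
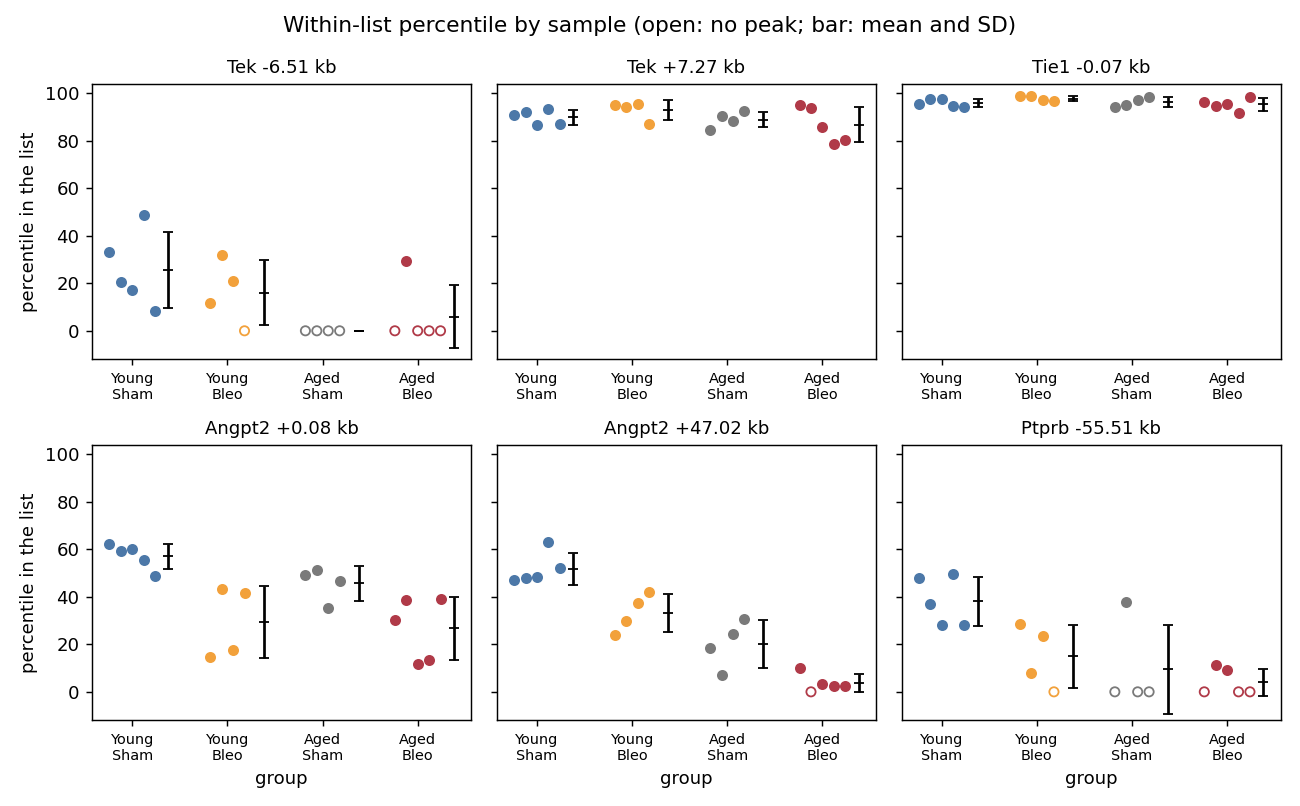
Within-list percentile of 6 regions in each sample (points, open where no peak was called) by group, with bars for mean and SD. Tie1 -0.07 kb and Tek +7.27 kb were high in all groups, whereas Angpt2 +47.02 kb was higher in each Young Sham sample than in any other.

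The second comparison asked what bleomycin changed in young mice, and few of the regions differed. By presence of a peak 2 were lower in Young Bleo, Tek +117.10 kb and Angpt2 +51.63 kb, and 1 was higher, Tek +46.85 kb, beside 1.96% of all regions lower and 3.98% higher. Without any 1 of the Young Sham samples or of Young Bleo 1, 2 and 3, 1 of the 3 calls was left. None of the 3 was left with equal list lengths. In that setting 5 other regions were called, lower at Tek +0.11 kb and at Angpt2 -26.26, +0.08 and +47.02 kb and higher at Tie1 -10.59 kb. The share of all regions called by presence there was not computed. Tek +46.85 kb, in an intron, had a peak in Young Bleo 1, 2 and 3, at 25.6, 12.5 and 40.9, in 0 of 5 Young Sham and 0 of 4 Aged Sham lists, and in Aged Bleo 1 and 2, at 31.3 and 38.6 (Fisher's exact p = 0.0476 for Young Bleo).

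Angpt2 +51.63 kb, downstream of the gene, had a peak at 39.5, 26.4, 40.6, 35.5 and 5.49 in Young Sham, in Young Bleo 4 only, at 24.2, at 19.03, 34.7, 13.7 and 11.9 in Aged Sham, and in 3 Aged Bleo lists, at 14.5, 11.6 and 29.95. Young Bleo 4 is the mouse of its group that was sequenced in the lane of Young Sham. Within lane 7 a peak lay there in 3 Aged Sham lists and in 0 Young Bleo lists, with mean percentiles of 22.45 and 0. The part of lane in the difference between Young Bleo and Young Sham was not tested.

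By strength limma called 2 regions lower in Young Bleo and none higher, Angpt2 +47.02 kb and the Angpt2 promoter, beside 1.75% of all regions lower and 1.63% higher. The count was 0 without Young Sham 1, 2, 3 or 4 or Young Bleo 1 or 3, 1 without Young Bleo 2, and 0 with lane as a term. The 2 calls with equal list lengths were the Angpt2 promoter, lower, and Tie1 -10.59 kb, higher.

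The Angpt2 promoter (Angpt2 +0.08 kb) stood at 62.01, 59.1, 60.03, 55.5 and 48.7 in Young Sham, 14.6, 43.3, 17.8 and 41.8 in Young Bleo, 49.2, 51.4, 35.1 and 46.8 in Aged Sham, and 30.2, 38.6, 11.9, 13.4 and 39.2 in Aged Bleo. Both Bleo groups lay below Young Sham without overlap, with differences of -27.71 ± 7.06 points in Young Bleo (limma adjusted p = 0.0433) and -30.40 ± 6.66 in Aged Bleo (limma adjusted p = 0.0148), whereas Aged Sham overlapped Young Sham. Between the aged groups the difference was -18.97 ± 7.06 points (limma adjusted p = 0.45).

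Tie1 -10.59 kb, an intergenic region singled out after its values were seen, stood at 40.3, 56.3, 37.2, 40.7 and 18.2 in Young Sham, 77.6, 76.6, 70.1 and 60.2 in Young Bleo, 0, 24.3, 27.5 and 28.5 in Aged Sham, and 48.96, 57.8, 31.4, 0 and 0 in Aged Bleo. Young Bleo lay above all other samples, but its difference from Young Sham, 32.60 ± 11.3 points, did not pass limma's test (adjusted p = 0.143). With equal list lengths it was 45.35 ± 6.25 (limma adjusted p = 0.00277), and with lane as a term 21.68 ± 19.3 (limma adjusted p = 1.00). The Aged Bleo minus Young Bleo difference was -43.51 ± 11.3 points (limma adjusted p = 0.0829), and with equal list lengths -46.37 ± 6.25 (limma adjusted p = 0.0058). It was -58.40 ± 24.04 with lane as a term (limma adjusted p = 0.409) and -26.88 ± 14.02 with background coverage (limma adjusted p = 0.872), and normal scores gave a limma adjusted p of 0.313.

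Aged Bleo against Young Sham combined age and injury. By presence of a peak 4 regions were lower, Tek -18.66, -6.51 and +117.10 kb and Ptprb +29.23 kb, and none was higher, beside 3.01% of all regions lower and 0.201% higher. By strength limma called 4 lower and none higher, Tek -18.66 kb, Ptprb -55.51 kb and Angpt2 +0.08 and +47.02 kb, beside 5.51% lower and 0.465% higher. At Tek -18.66 kb the difference was -22.56 ± 5.65 points (limma adjusted p = 0.0288), a call lost without any 1 of Young Sham 1, Young Sham 2, Young Sham 3, Young Sham 4, Aged Bleo 3, Aged Bleo 4 and Aged Bleo 5. Without Aged Bleo 2 the counts were 7 and 9, without Young Sham 5 the count by strength was 9, and with lane as a term it was 0. Over all regions the calls by strength were 2827, and 3800, 3970 and 61 in these settings, and calls by presence were not counted in them. With equal list lengths none of the 4 calls by presence was left, Tek +0.11 kb and Angpt2 +47.02 kb were called instead, and the 2 calls by strength were Angpt2 +0.08 and +47.02 kb.

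Ptprb -55.51 kb stood at 47.8, 36.9, 28.1, 49.7 and 27.9 in Young Sham, 28.5, 7.82, 23.4 and 0 in Young Bleo, 0, 37.7, 0 and 0 in Aged Sham, and 0, 11.2, 9.37, 0 and 0 in Aged Bleo. Aged Bleo lay wholly below Young Sham, with a difference of -33.95 ± 7.54 points (limma adjusted p = 0.016). Ptprb +29.23 kb, in an intron of the phosphatase gene, had a peak at 40.3, 47.2, 12.3 and 9.51 in 4 Young Sham lists, at 20.3 and 13.4 in 2 Young Bleo lists and in none of the 9 aged lists.

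**Figure D4:**
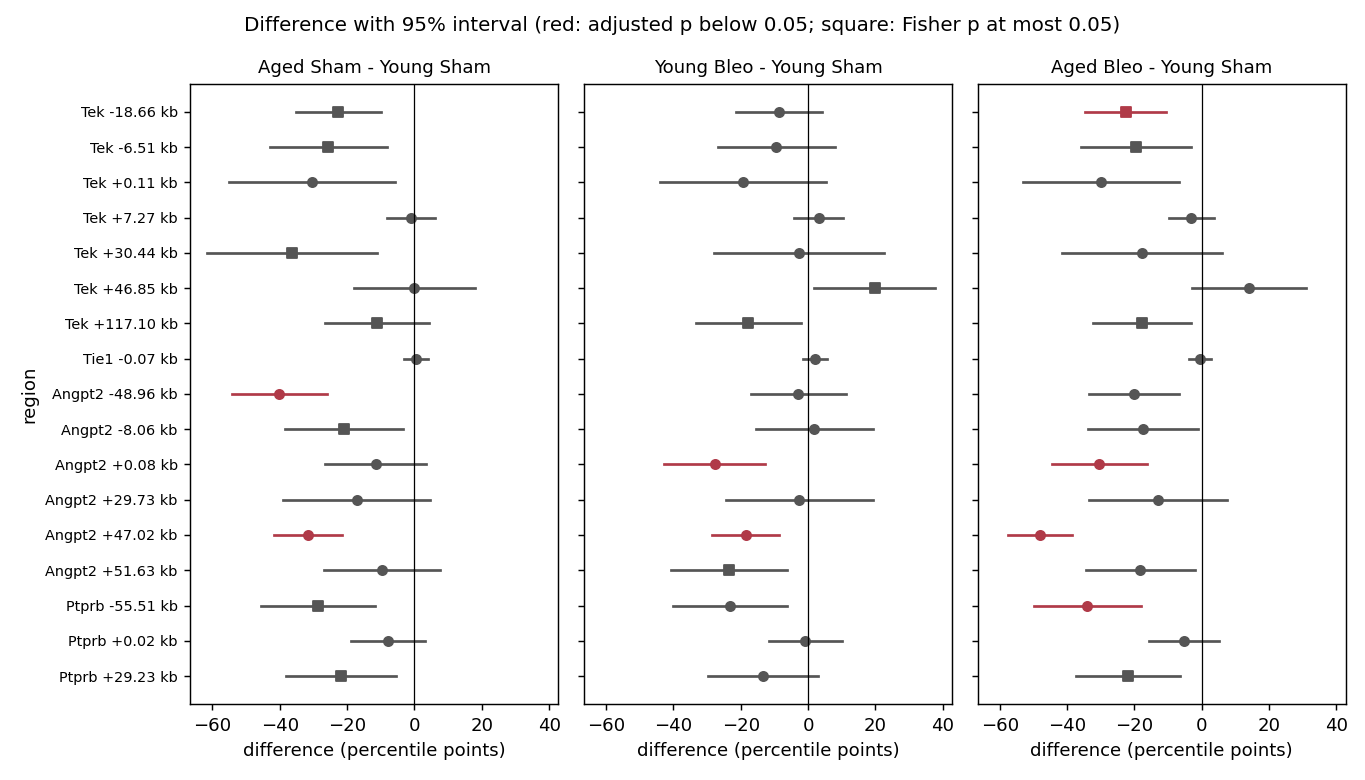
Difference in within-list percentile (points, with 95% intervals from limma) of 17 regions in the 3 comparisons with Young Sham, red where the adjusted p was below 0.05 and square where Fisher's exact p was at most 0.05. The Angpt2 +47.02 kb interval lay below 0 in each comparison, and the Tie1 -0.07 kb interval included 0 in each.

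Between Aged Bleo and Aged Sham none of the 42 was called by presence or, with limma, by strength. Over all regions 0.41% were lower and 0.475% higher by presence, and 0.0338% and 0.0634% by strength. At an unadjusted limma p below 0.05, 2 of the 42 were lower and 1 higher, and no share over all regions was computed at that threshold. Against Young Bleo, Aged Bleo was lower by presence at Tek -18.66 kb, beside 2.44% of all regions lower and 0.123% higher, and this call was lost without Young Bleo 1, 2 or 3 or any 1 Aged Bleo sample. By strength it was lower at Angpt2 +47.02 kb, beside 0.904% lower and 0.0275% higher, and 2 regions were called without Aged Bleo 1 or 2, where calls over all regions went from 441 to 958 and 1083. In lists of equal length the 1 call by presence and the 1 by strength were both Tie1 -10.59 kb.

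The interaction of age and bleomycin was called by limma at 0 of the 42 regions, beside 0.0507% of all regions lower and 0.0908% higher. At an unadjusted limma p below 0.05 there was 1 of the 42, and no share over all regions was computed at that threshold. The absence of a call does not show that groups were alike.

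Over the 42 regions the median difference was -11.41 percentile points in Aged Sham, with 35 below 0. Over all 47338 regions it was -4.13, with 34747 below 0. In Young Bleo it was -0.94 (all regions 0.67) and in Aged Bleo -11.77 (all regions -2.87), each against Young Sham. By gene the Aged Sham median was -13.95 at Tek, -13.27 at Tie1, -14.27 at Angpt2 and -7.85 at Ptprb. The 12 regions called in any comparison comprised 9 in introns, 2 intergenic ones and the Angpt2 promoter.

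A list of 19 other genes of the pathway held 100 regions by nearest TSS. Against Young Sham, Aged Bleo was lower at 3 by presence and 9 by strength (limma), beside 3.01% and 5.51% of all regions. Young Bleo was lower at 2 and 5, beside 1.96% and 1.75%, and Aged Sham at 2 and 2, beside 4.9% and 2.62%. None was higher. Grb14, an adaptor of receptor kinases, held 4 of the 9 regions lower by strength in Aged Bleo and 3 of the 5 in Young Bleo. Its region 62.77 kb from the TSS fell by 49.6 ± 5.21 points in Aged Bleo (limma adjusted p = 8.99e-05) and by 42.3 ± 5.53 points in Young Bleo (limma adjusted p = 0.00074), and Aged Bleo was lower than Aged Sham there, where the mean fell by 31.9 ± 5.53 points (limma adjusted p = 0.0419). Of 6 regions at Angpt1, the ligand that activates Tie2, 1 was called. It lay 0.74 kb from the TSS and fell by 26.4 ± 6.86 points in Aged Bleo (limma adjusted p = 0.0339). At Foxo1, a transcription factor restrained by Tie2 signalling, 1 of 13 regions was called, lower by 19.2 ± 5.35 points in Aged Bleo (limma adjusted p = 0.0452). At Klf2, a factor that responds to blood flow, 1 of 14 was, lower by 7.98 ± 1.72 points in Aged Sham (limma adjusted p = 0.0232). Calls were also made at Pik3r1 and Itgb1. These regions were not followed under other settings. With lane as a term, calls by strength over all regions went from 2827 to 61 in Aged Bleo, each against Young Sham. In Young Bleo they went from 1602 to 329, and in Aged Sham from 1279 to 135.

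As a description over 18 samples, which share lanes and differ in depth, the genes with at least 5 regions whose mean percentile followed Tek most closely among 2717 were Tango6 (Pearson r = 0.92), Hmcn1 (r = 0.79) and 9430078K24Rik (r = 0.78). For Angpt2 they were Dpp4 (r = 0.868), Fhdc1 (r = 0.85) and Tdrd3 (r = 0.848), and for Ptprb Rxra (r = 0.815), Rtkn2 (r = 0.696) and Ucp3 (r = 0.694). Tie1, with 3 regions, was most like Rrm2 (r = 0.83), Cdh6 (r = 0.825) and Gm5441 (r = 0.806).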

How the data were processed

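Omni-ATAC-seq was performed on sorted ECs of single mice. The authors aligned paired-end reads to mm10 with BWA (HiChIP pipeline), removed duplicates with Picard and used MACS2 on every sample separately, at an FDR of 1%. The deposited fold enrichment is a ratio to local background within a library, and the deposited -log10 p and -log10 q come from MACS2 as the authors ran it. None is scaled between libraries, so percentiles within a list were computed, and these fall in short lists because a region without a peak counts as 0. The authors tested read counts with DiffBind, and such counts were not used here.

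Whole fragments at summits were solved from fold enrichment and -log10 p up to 250 (tolerance 0.01), which succeeded for at least 99.987% of peaks per list. Background coverage is the smallest expected value so found in a list and served as the measure of depth. Midpoints were annotated with 45756 RefSeq transcripts of GRCm38.p6.

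Presence was tested with Fisher's exact test (scipy 1.17.1) and strength with limma 3.58.1 (R 4.3.3), fitted on all 18 samples in 4 groups with Benjamini-Hochberg adjustment over 47338 regions. Both were also run on simulated data, where limma recovered most large shifts and missed most of moderate size. There, list length alone lowered the unadjusted p of some unchanged regions, and very few passed adjustment. The part of list length in calls on the real lists was not tested by this. With equal list lengths the Aged Sham calls by strength over all regions went from 1279 to 157. Lane was taken from a code within the list names. Regions described in full were those at or nearest each TSS, the strongest of each gene and up to 12 called regions by smallest p. The genes, regions and lists were chosen with earlier results of these data known. Alternatives were stricter peaks (-log10 q or fold enrichment of at least 5), equal list lengths, peaks covering 50% of a region, at least 3 lists, nearest TSS alone, percentiles of -log10 p, normal scores, terms for lane, background coverage or replicate block, regions in all 18 lists and each sample left out.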

Additional observations from a re-analysis of the deposited data

Results flagged for a closer look

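Of 57 groups of samples checked at 17 regions, 6 held a sample far from the others. For continuous values chance flags about 1 in 20 groups, but 5 of the 6 were a single peak among samples at 0, to which that rate does not apply. Young Bleo 4 stood at the 86.8 percentile at Tek +7.27 kb, while the other Young Bleo samples stood at 94.4 to 95.6. It was also the only Young Bleo sample with a peak at Angpt2 +51.63 kb, at 24.2. This mouse was sequenced in lane 8 and the others of its group in lane 7. Aged Sham 2, with the most peaks of its group (32220), was the only Aged Sham sample with a peak at Ptprb -55.51 kb (37.7) and at Tek +117.10 kb (26.2). Aged Bleo 2, with the most peaks of all lists (40883), was the only Aged Bleo sample with a peak at Tek -6.51 kb (29.6), and Aged Bleo 1 the only one with a peak at Angpt2 -8.06 kb (17.3). The part of lane and list length in these values was not tested.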

How the results depend on the processing

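Against Young Sham, 7 regions were called by presence in Aged Sham, 3 in Young Bleo mice and 4 in Aged Bleo. With equal list lengths these counts were 1, 5 and 2, none of them among the regions first called. With 50% cover they were 5, 4 and 6, of which 2, 3 and 2 were among them. With a fold enrichment of at least 5 they were 6, 1 and 3, of which 5, 1 and 2 were. Aged Bleo against Aged Sham went from 0 to 2 with a -log10 q or a fold enrichment of at least 5 and to 1 with 50% cover, and Aged Bleo against Young Bleo from 1 to 2, 2 and 3. Calls by presence over all regions were not counted under these settings or with a sample left out. No share therefore stands beside these counts. By strength the first 3 counts were 2, 2 and 4. They were 0, 0 and 0 with lane as a term, 0, 1 and 1 with background coverage, 0, 2 (1 lower and 1 higher, with 1 of the first calls) and 2 with equal list lengths, and 0, 0 and 1 among regions in all 18 lists, where only 9 of the 42 were tested. Over all 47338 regions calls went from 1279, 1602 and 2827 to 135, 329 and 61 with lane and to 115, 1289 and 495 with background coverage. Percentiles of -log10 p gave 7 in Aged Bleo (4240 over all regions), and normal scores 1 in Young Bleo, not among the 2 first called, and 3 in Aged Sham, of which 1 was. Aged Bleo against Young Bleo went from 1 to 0 with lane, background coverage, normal scores and regions in all 18 lists. Apart from the smaller number tested, the cause was not tested. The replicate block gave 4, 1 and 4, although replicate numbers did not pair the samples (25 same-numbered pairs, r of deviations from -0.30 to 0.28).

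With each sample left out in turn, calls by presence ran from 2 to 4, 1 to 3 and 4 to 7 in the first 3 comparisons and 0 to 1 for Aged Bleo against Young Bleo, and calls by strength from 2 to 6, 0 to 2, 3 to 9 and 1 to 2. Of the calls at named regions, 61 of 131 values under other settings and 85 of 224 with a sample left out missed the threshold and none was reversed, although many differences in presence were 0 with equal list lengths. The 42 regions became 38 by nearest TSS alone and 39 with at least 3 lists. Weak regions rest on few fragments, and the lack of a peak there does not show closed DNA.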
